A study of Homo sapiens with 12 samples.

Results

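The mRNAs of the replication-dependent histone genes were followed through EIF3G knockdown and through polysome fractionation in H1299 cells. The genes were taken by symbol: every row named H1-1 to H1-5, or H2AC, H2BC, H3C or H4C followed by a number. This gave 54 genes of the 16172 in the table, of which 4 encode linker histone H1, 14 encode H2A, 15 encode H2B, 10 encode H3 and 11 encode H4. By RefSeq, 45 of them lie on chromosome 6 and 9 on chromosome 1. The minimum for testing, an average of 1 TPM across the 12 libraries, was reached by 36 of the 54, and 18 lay under it.

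Replication-dependent histone genes supply the histones that package newly made DNA, and their mRNAs accumulate in S phase. These mRNAs normally end in a short stem-loop in place of a poly(A) tail. The stem-loop binding protein SLBP holds that end, and it takes part in processing, export, translation and decay of the mRNA. CTIF, a cap-complex protein, binds both SLBP and the eIF3 subunit eIF3g, which ties the knocked-down gene to translation of this family; MIF4GD (SLIP1) is another bridge between SLBP and the initiation machinery. The labels state that mRNA was captured on oligo(dT) beads, so the values describe the part of these transcripts that such beads retain, and transcripts that end in the stem-loop are poorly retained.

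There were 4 groups of 3 libraries: siEIF3G polysomal, siCtrl polysomal, siEIF3G input and siCtrl input. All cells were NCI-H1299, a non-small cell lung cancer line, transfected with an equimolar mix of 2 siRNAs against EIF3G (labelled siEIF3Gs, here siEIF3G) or with the control siRNA siCtrl, and lysed after 72 h. Input is 10% of the cleared lysate, and polysomal RNA came from the polysome part of a sucrose gradient of that lysate. eIF3g is a subunit of initiation factor eIF3, which brings the small ribosomal subunit to mRNA. The labels do not say whether replicates are separate cultures, and the spread that the p-values rest on may therefore be technical. In bulk RNA, fewer cells in S phase and less histone mRNA per cell cannot be told apart.

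The promoters of the leading member of each class are printed because the classes differ in both level and promoter letters. That of H2AC14 is printed because its pair differs most in level among the H2A and H2B pairs counted below. Each is the 250 bases before the RefSeq gene start (GRCh38.p14), written 5′ to 3′ on the gene's strand. Capitals mark matches, on either strand, to 4 motifs: the TATA box TATAAA, the CCAAT box CCAAT, the octamer ATTTGCAT bound by OCT1 in H2B genes, and the H1 box AAACACA. H1-2 is at chr6:26056471-26056720 (minus strand), H2AC18 at chr1:149842751-149843000 (minus), H2BC12 at chr6:27146859-27147108 (minus), H3C8 at chr6:26271414-26271663 (minus), H4C11 at chr6:27823842-27824091 (plus) and H2AC14 at chr6:27814778-27815027 (minus).
H1-2: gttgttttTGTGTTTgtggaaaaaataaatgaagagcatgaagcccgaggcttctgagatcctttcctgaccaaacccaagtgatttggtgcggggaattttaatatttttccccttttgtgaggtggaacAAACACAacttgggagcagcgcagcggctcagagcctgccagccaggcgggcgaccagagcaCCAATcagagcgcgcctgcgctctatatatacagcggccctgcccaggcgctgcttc
H2AC18: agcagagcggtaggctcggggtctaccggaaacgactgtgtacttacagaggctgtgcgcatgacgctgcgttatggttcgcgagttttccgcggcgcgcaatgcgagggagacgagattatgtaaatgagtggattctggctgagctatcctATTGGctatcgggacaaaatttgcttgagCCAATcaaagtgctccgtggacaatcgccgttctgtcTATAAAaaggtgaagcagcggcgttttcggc
H2BC12: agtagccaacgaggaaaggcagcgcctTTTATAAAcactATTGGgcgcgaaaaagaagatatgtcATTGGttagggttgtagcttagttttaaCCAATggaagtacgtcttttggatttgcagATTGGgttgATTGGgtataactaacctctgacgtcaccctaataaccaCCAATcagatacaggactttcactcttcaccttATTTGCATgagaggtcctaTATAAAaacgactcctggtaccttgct
H3C8: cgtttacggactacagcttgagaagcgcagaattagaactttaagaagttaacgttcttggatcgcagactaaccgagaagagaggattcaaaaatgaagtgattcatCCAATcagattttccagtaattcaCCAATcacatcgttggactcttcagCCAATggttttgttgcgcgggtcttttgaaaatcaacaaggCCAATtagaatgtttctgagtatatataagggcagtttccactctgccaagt
H4C11: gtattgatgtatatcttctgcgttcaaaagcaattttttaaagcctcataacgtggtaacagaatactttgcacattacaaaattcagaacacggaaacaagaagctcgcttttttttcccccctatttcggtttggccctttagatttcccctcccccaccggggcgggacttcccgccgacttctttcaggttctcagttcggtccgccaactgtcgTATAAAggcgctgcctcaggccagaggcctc
H2AC14: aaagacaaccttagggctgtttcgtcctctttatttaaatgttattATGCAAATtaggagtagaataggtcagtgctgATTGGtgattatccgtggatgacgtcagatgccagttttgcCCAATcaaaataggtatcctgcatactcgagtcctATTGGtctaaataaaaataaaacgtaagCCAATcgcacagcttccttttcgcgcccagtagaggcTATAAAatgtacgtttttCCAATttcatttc
A promoter was in the table for 50 of the 54 members; H4C1, H4C3, H2AC12 and H3C12 had none. CCAAT occurred in all 4 H1, all 13 H2A, all 15 H2B and all 9 H3 promoters, but in 1 of 9 H4 promoters, against 37.0% of all 27305 promoters. The octamer occurred in 10 of 13 H2A and 12 of 15 H2B promoters, in 1 of 9 H3 promoters and in no H1 or H4 promoter, against 2.03% of all promoters. The gaps of the head-to-head H2A and H2B pairs counted below span 193 to 247 bases, so both promoters of a pair share most letters. A single match can therefore count for both genes, and the H2A and H2B counts are not independent. The octamer counted for H3 is that of H3C4. Its RefSeq locus begins at the same base and on the same strand as that of H2AC7, so it may be the H2AC7 match counted again. The H1 box was in 4 of 4 H1 promoters and in no other member, against 5.95% of all promoters. TATAAA was found in 33 of the 50, against 13% of all promoters. Overlapping matches, such as the paired TATA box letters at the 5′ end of the H2BC12 promoter, were counted once per promoter. A match describes letters only: the 35 tested members with a promoter held TATAAA in 65.7% and the octamer in 45.7%, close to the 66.0% and 46.0% of all 50.

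The values are TPM, transcripts per 1000000 transcripts, which scale reads by gene length and by library; read depth is unknown. EIF3G itself had 143, 132 and 69.2 TPM in siEIF3G polysomal and 1680, 1916 and 1803 TPM in siCtrl polysomal libraries, and 60.7, 84.7 and 47.3 TPM in siEIF3G input against 1158, 1092 and 878 TPM in siCtrl input. Both fractions thus retained 6.38% (polysomal) and 6.16% (input) of the control mean. Across genes, siEIF3G polysomal 3, siEIF3G input 2 and siCtrl input 1 correlated better with the other fraction of their own siRNA (mean r of 0.953, 0.958 and 0.957) than with the other replicates of their group (0.949, 0.929 and 0.922). These 3 libraries stood apart, in a way that goes against the fraction on their labels. Whether fractions were exchanged was not tested, and every polysomal against input value takes the labels as given; results resting on these libraries are also given without them. Of the markers listed for the line VIM, KRT8 and KRT18 were abundant and NKX2-1 averaged 0.13 TPM, and the non-lung markers PECAM1 and ALB stayed at or under 0.10 TPM, while ACTA2 reached 9.23 and MBP 5.42 TPM.

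The histone mRNA pool was carried by few genes. H2BC12 averaged 135 TPM over the 12 libraries and made up 32.4% of the summed TPM of all 54 members; the 5 highest members made up 69.3% and the 10 highest 80.3%. By class, H2B held 42.0% of the summed TPM, H4 20.7%, H2A 18.3%, H1 14.0% and H3 5.15%. The leading gene differed in weight between classes: H1-2 (56.5 TPM) was 97.0% of its class, H2BC12 77.2%, H4C11 (46.4 TPM) 53.8%, H2AC18 (33.1 TPM) 43.4% and H3C8 (6.40 TPM) 29.8%. The second member was H1-5 for H1 (1.04 TPM), H2BC9 for H2B (11.1 TPM), H4C12 for H4 (17.7 TPM), H2AC6 for H2A (12.9 TPM) and H3C10 for H3 (5.35 TPM). H2BC12 had 66.8 to 259 TPM and H1-2 37.3 to 85.4 TPM over the 12 libraries, so the ranges of the top pair overlapped.

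**Figure D1:**
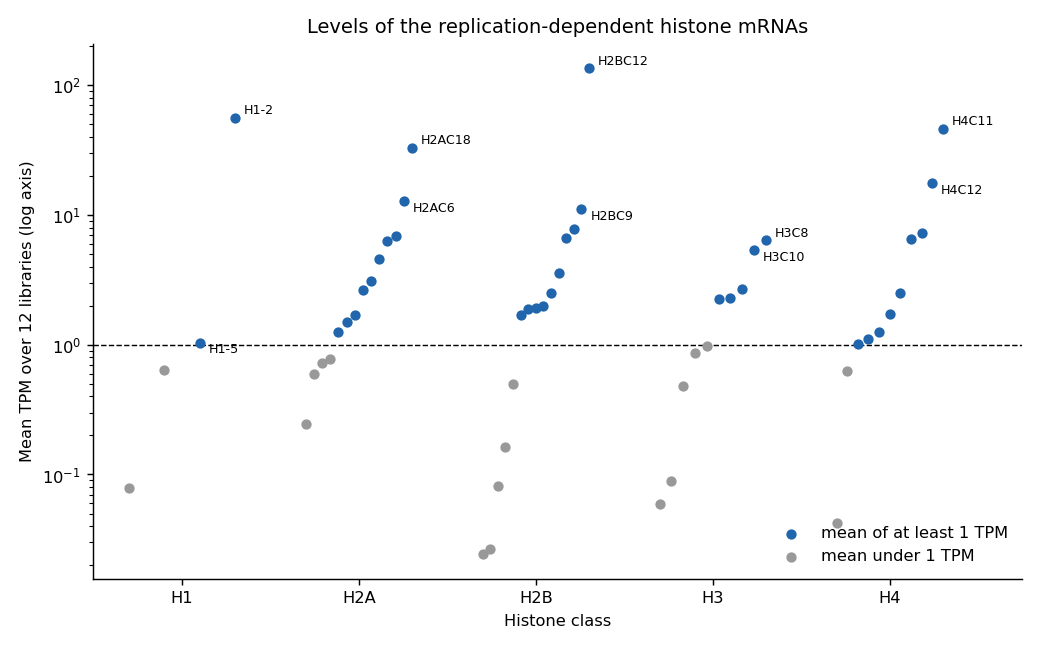
Mean TPM over 12 libraries (log axis) of the 54 members by histone class; blue points reach the dashed line at 1 TPM and grey points lie under it. H2BC12 stands highest at 135 TPM, and H3 is the class with no member above 6.40 TPM.

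The members under 1 TPM were 2 of 4 H1, 4 of 14 H2A, 5 of 15 H2B, 5 of 10 H3 and 2 of 11 H4 genes. For H1 these were H1-3 (0.079 TPM) and H1-4 (0.643 TPM), and for H2A they were H2AC21 (0.243), H2AC15 (0.595), H2AC4 (0.724) and H2AC12 (0.779 TPM). For H2B they were H2BC3 (0.024), H2BC14 (0.027), H2BC10 (0.082), H2BC7 (0.163) and H2BC18 (0.50 TPM). H3 fell short with H3C1 (0.059), H3C3 (0.088), H3C13 (0.478), H3C2 (0.866) and H3C12 (0.984 TPM), and H4 with H4C1 (0.042) and H4C4 (0.63 TPM). H3C12 was the closest below the line and H4C9 (1.02 TPM) the closest above it. Only 30 of the 54 members were above 0 in all 12 libraries.

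Head-to-head neighbours mostly differed in level. H2A and H2B genes often lie back to back, and 9 such gaps of at most 500 bases separated members on opposite strands. H2AC14 averaged 3.11 TPM and its neighbour H2BC14 0.027 TPM across a gap of 244 bases, whereas H2AC17 (1.69 TPM) and H2BC17 (1.69 TPM) were level across 239 bases. The other counted H2A and H2B pairs differed by 1.40-fold (H2AC13 and H2BC13) to 7.74-fold (H2AC7 and H2BC7). Apart from the level pair the H2A gene was the higher in 6 of 8 counted gaps.

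As deposited, the summed TPM of the family differed between fractions and not clearly between siRNAs, and this order depended on the scaling. It was 315, 291 and 315 TPM in siEIF3G polysomal and 286, 342 and 360 TPM in siCtrl polysomal libraries, and 516, 516 and 506 TPM in siEIF3G input against 495, 555 and 515 TPM in siCtrl input. The siRNA groups overlapped in both fractions, and every polysomal sum was under every input sum, at 0.599 of the input mean with siEIF3G and 0.631 with siCtrl. Without the 3 libraries these ratios were 0.594 and 0.615. After median-of-ratios size factors, which remove the shift of all genes described below, the ratio was 0.870 with siEIF3G and 1.28 with siCtrl, with overlap of the fractions in both, so in control cells the direction of the family sum turned with the scaling. After the same size factors every siEIF3G polysomal sum was under every siCtrl polysomal sum, at 0.633 of the control mean, whereas the input groups still overlapped. After quantile normalization the siRNA groups overlapped in both fractions (ratio of 0.759 on polysomes), and the polysomal sums were fully lower in knockdown cells (0.649) but overlapped the input sums in control cells (0.883). Set against 12 histone variant genes whose mRNAs are polyadenylated (H2AX also has a stem-loop form), the family gave 12.6, 12.2 and 9.45 TPM per 100 TPM of variants in siEIF3G polysomal, and 9.95, 10.7 and 10.6 in siCtrl polysomal. It gave 21.9, 23.9 and 18 per 100 TPM of variants in siEIF3G input and 19.4, 17.8 and 14.6 in siCtrl input. That ratio, which no size factor can change, was lower in polysomal than in input libraries with either siRNA, and the siRNA groups overlapped.

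The shares of the classes within the family do not depend on a common scaling factor, and they separated the groups. H1 made up 17.5%, 16.0% and 14.0% of histone TPM in siEIF3G polysomal and 21.3%, 22.2% and 24.0% in siCtrl polysomal libraries, and 11.6%, 13.7% and 11.5% in siEIF3G input against 8.42%, 10.6% and 7.86% in siCtrl input. With EIF3G knocked down the H1 share was thus lower than in every control library on polysomes and higher than in every control library in input, although the input groups overlapped after quantile normalization. H2A made up 31.3%, 24.5% and 25.6% in siEIF3G polysomal and 21.0%, 22.7% and 21.4% in siCtrl polysomal, but 15.2%, 13.4% and 14.5% in siEIF3G input and 13.6%, 15.7% and 14.7% in siCtrl input. The H2A share was higher with siEIF3G on polysomes, where the groups did not overlap as deposited or after quantile normalization (a size factor cannot change a share), and overlapped in input. The H4 share was 16.0%, 15.8% and 14.5% in siEIF3G polysomal and 19.2%, 20.4% and 17.4% in siCtrl polysomal, with no overlap; in input it was 21.7%, 24.1% and 8.27% with siEIF3G and 40.3%, 23.2% and 19.2% with siCtrl, with overlap. H3 made up 5.59%, 4.33% and 3.80% in siEIF3G input and 8.71%, 5.93% and 5.74% in siCtrl input, apart as deposited and overlapping after quantile normalization. H2B shares overlapped between siRNAs in both fractions. Without the 3 libraries, the ratio of the mean H1 shares, siEIF3G over siCtrl, was 0.746 on polysomes (0.705 with them) and 1.25 in input (1.37 with them). Shares of a whole are tied to each other, and no test was made of them.

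**Figure D2:**
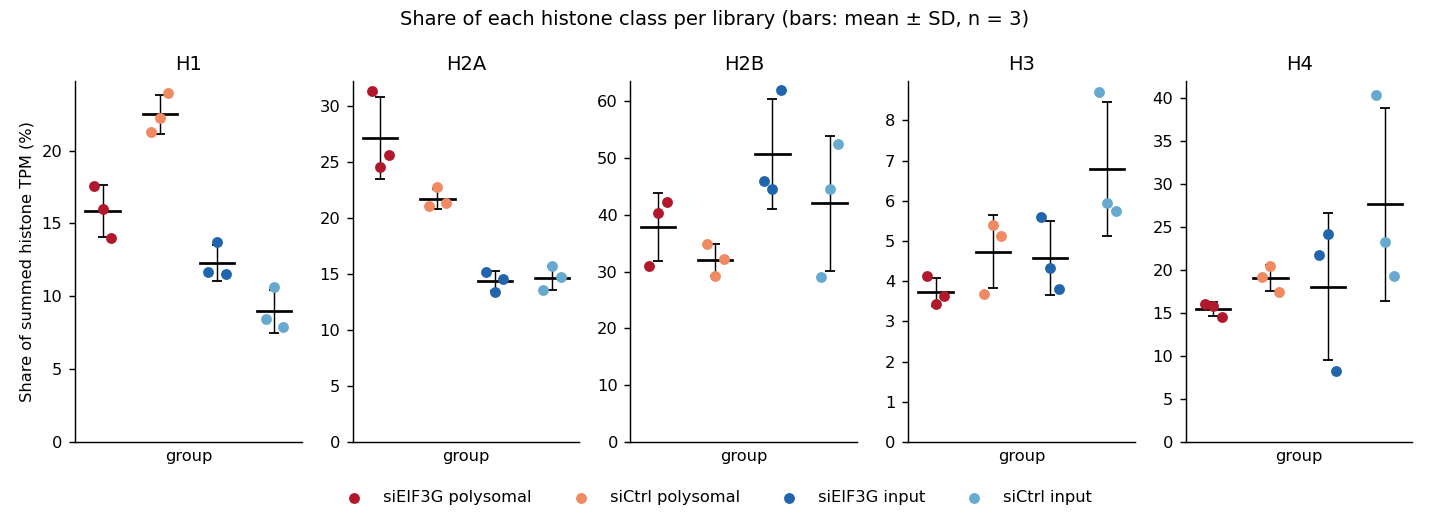
Share of summed histone TPM (%) held by each class, 1 point per library, with the mean and SD of 3 libraries per group. H1 and H2A shares lie higher in every polysomal library than in every input library of the same siRNA, and H1 and H4 lie lower in siEIF3G polysomal than in siCtrl polysomal libraries.

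Of single genes, no member passed the test for EIF3G knockdown in input RNA. Limma was fitted to log2(TPM + 1) of 10605 genes, and 0 of the 36 tested members passed an adjusted p of 0.05, where 0.0189% of all genes did (2 genes, among them EIF3G); 4 members had an unadjusted p under 0.05. The median log2 change was -0.27 over the members and -0.05 over all genes, and 9 of 36 members were positive, where 43.0% of all genes were. By class the medians were -0.71 for H4, -0.24 for H2B, -0.15 for H2A, -0.08 for H3 and 0.17 for H1, which had only 2 tested genes.

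H4C2, an H4 gene, had the largest change. It had 0.96 TPM in 1 siEIF3G input library and was listed at 0 in the other 2, against 2.17, 3.65 and 3.91 TPM in siCtrl input (log2 change -1.74, SE 0.34, limma adjusted p = 0.44). The groups did not overlap, and the value was -1.77 without the 3 libraries. H2AC14 had 1.70 and 3.05 TPM and was listed at 0 once in siEIF3G input, against 6.24, 5.13 and 5.59 TPM in siCtrl input (log2 change -1.58, SE 0.53). H3C7, which encodes H3, had 2.13, 1.80 and 1.14 TPM in siEIF3G input and 7.93, 4.61 and 4.70 TPM in siCtrl input (log2 change -1.31, SE 0.36, limma adjusted p = 1.00). These libraries too were fully apart. H4C12 gave a log2 change of -1.56 with an SE of 1.44, because it was listed at 0 in siEIF3G input 2; without that library the value was 0.10. Members whose groups did not overlap were H4C2, H4C3, H2AC14 and H3C7 on the lower side, where 1.80% of all genes were, and H1-2 on the higher side, where 1.88% were. With the position of each library on the main axis of spread within groups as a covariate, H4C2 (log2 change -1.72, limma adjusted p = 0.00887) and H3C7 passed, where 0.226% of all genes did. That axis was derived from these same libraries and held 78% of the spread within groups. The covariate thus lowers the spread by construction, its p-values may be too small, and these passes are not independent support.

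On polysomes too, no member passed for EIF3G knockdown (0 of 36, against 0.0189% of all genes; 2 members had an unadjusted p under 0.05). All genes together shifted by a median log2 change of 0.33 in the polysomal comparison, and by -0.05 after size factors, so values there are also given relative to it. The members' median was -0.13, or -0.46 relative to all genes, and 6 of the 36 lay above the median of all genes. After size factors the members' median was -0.56 and after quantile normalization -0.60. All 5 class medians lay under the median of all genes, at -0.62 for H1 and H2B, -0.50 for H3, -0.46 for H4 and -0.33 for H2A relative to it.

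H2BC9, the second most abundant H2B mRNA, had 4.56, 7.08 and 1.98 TPM in siEIF3G polysomal and 10.3, 10.9 and 14.3 TPM in siCtrl polysomal libraries (log2 change -1.31, SE 0.49, limma adjusted p = 0.65). H2AC6, an H2A gene, had the opposite order with 8.38, 10.2 and 15.6 TPM in siEIF3G polysomal and 4.81, 5.98 and 4.28 TPM in siCtrl polysomal (log2 change 1.01, SE 0.50). Neither pair of groups overlapped. H2BC15 had 1.62, 3.47 and 6.04 TPM in siEIF3G polysomal and 0.42, 1.32 and 2.05 TPM in siCtrl polysomal (log2 change 1.01, SE 0.52), with overlap. Groups did not overlap for H1-2, H2BC4, H2BC9 and H4C2 on the lower side (7.61% of all genes) and for H2AC6 on the higher side (21.6% of all genes).

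H1-2, the main linker histone mRNA among the 54 members, had opposite orders of the siRNA groups in the 2 fractions. It had 54.5, 46.0 and 42.3 TPM in siEIF3G polysomal and 60.2, 74.6 and 85.4 TPM in siCtrl polysomal libraries, a mean of 47.6 ± 6.28 against 73.4 ± 12.7 TPM (SD, n = 3 each). In input it had 56.2, 69.4 and 57.1 TPM with siEIF3G and 39.8, 55.3 and 37.3 TPM with siCtrl, a mean of 60.9 ± 7.38 against 44.1 ± 9.72 TPM (SD, n = 3 each). All 3 knockdown libraries were under the controls on polysomes and over them in input. The log2 change was -0.61 (SE 0.25, limma adjusted p = 0.65) on polysomes and 0.47 (SE 0.25, limma adjusted p = 1.00) in input. The difference of these effects, the change of polysome loading, was -1.08 (SE 0.36, unadjusted p = 0.0103 in limma, adjusted p = 0.908), which did not pass. Relative to the median of all genes, which was 0.38 for loading, the H1-2 value was -1.46. The change as fitted, -1.08, became -1.64 to -0.82 under the alternatives run.

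No member passed for change of polysome loading (0 of 36, against 0% of all genes; 1 member and 19 genes had an unadjusted p under 0.05 in limma). The median was 0.17 over the members and 0.38 over all genes; after size factors these were -0.34 and -0.09. All 9 tested H4 genes were positive, where 73.9% of all genes were, but 4 of the 9 lay above the median of all genes, and their median of 0.35 was -0.04 relative to it. H4C12 (log2 change 1.59, SE 2.04), H1-2 and H4C2 (1.04, SE 0.48, limma adjusted p = 0.908) had the largest values in size. H4C12 again rested on siEIF3G input 2, without which the value was -0.07. H2B had a median of -0.02, and none of its 10 tested genes exceeded the median of all genes.

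**Figure D3:**
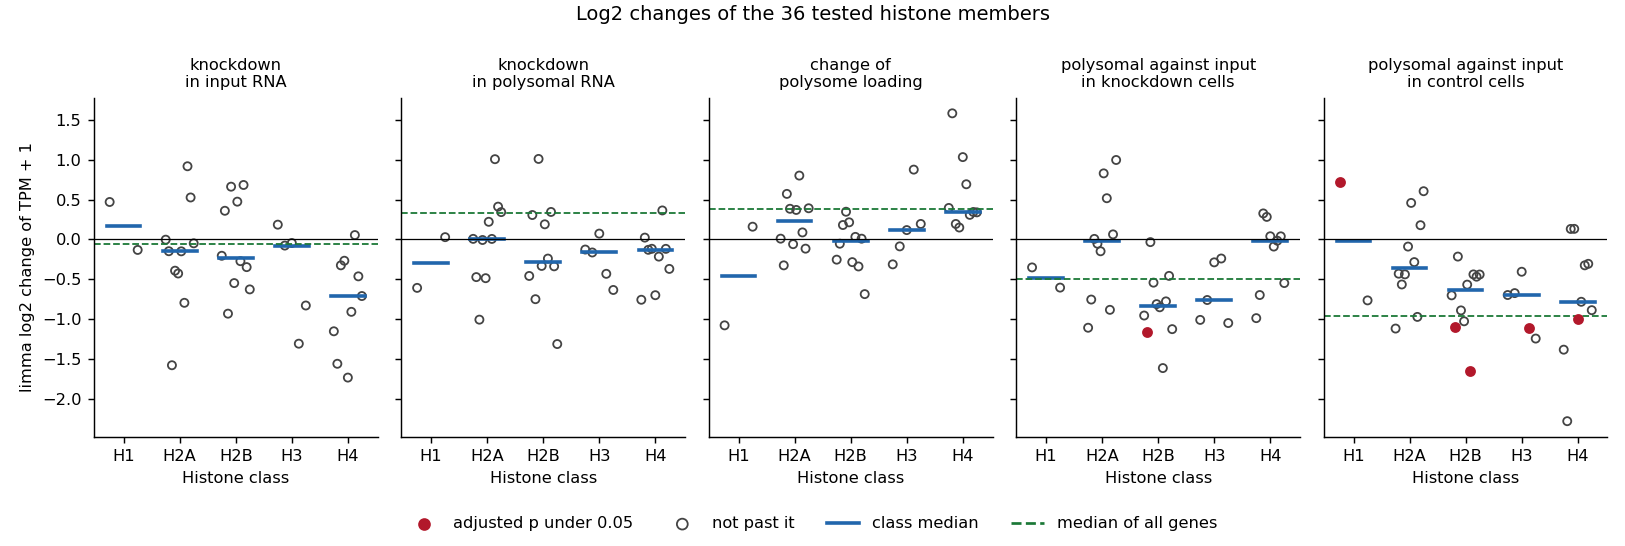
Limma log2 change of TPM + 1 of the 36 tested members by class in the 5 comparisons; filled red points have an adjusted p under 0.05, blue bars are class medians and the dashed green line is the median of all 10605 genes. Called members appear only in the polysomal against input panels, 1 in knockdown and 5 in control cells.

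Between fractions, in values as deposited, H2B and H3 members lay on the lower side and several H2A members on the higher. In knockdown cells 1 of 36 members passed for polysomal against input RNA, where 3.14% of all genes did, and in control cells 5 of 36 did, where 36.9% of all genes did; both shares of members are at or under the background. All genes together had a median log2 change of -0.49 in knockdown and -0.96 in control cells, and of 0.04 and 0.05 after size factors. The members' medians were -0.50 in knockdown and -0.57 in control cells, that is -0.01 and 0.40 relative to all genes.

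H2BC12 had 79.8, 91.1 and 106 TPM in siEIF3G polysomal and 186, 182 and 259 TPM in siEIF3G input libraries, a log2 change of -1.16 (SE 0.27, limma adjusted p = 0.0352). In control cells it had 74.6, 66.8 and 81.2 TPM in polysomal and 109, 187 and 201 TPM in input libraries, a log2 change of -1.11 (SE 0.27, limma adjusted p = 0.0241). All polysomal values were lower with either siRNA, but in control cells the change was only -0.14 relative to all genes, and the size-factor fit turned its direction (0.06). H2BC4, another H2B gene, had 0.56, 0.36 and 0.49 TPM in siEIF3G polysomal and 4.45, 2.17 and 4.27 TPM in siEIF3G input (log2 change -1.62, SE 0.43, limma adjusted p = 0.0609). In control cells it had 0.60, 0.86 and 0.75 TPM in polysomal and 1.56, 7.08 and 6.76 TPM in input libraries (log2 change -1.65, SE 0.43, limma adjusted p = 0.028). H2BC4 was lower on polysomes in every library, and in control cells it was also lower under size factors (-0.89, adjusted p = 0.0107) and quantile normalization (-0.59, adjusted p = 0.0515).

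H1-2 was the only member that passed as higher on polysomes in values as deposited, and this call was a narrow one. Its control values given above made a log2 change of 0.73 (SE 0.25, limma adjusted p = 0.0452), or 1.69 relative to all genes, and 1.88 after size factors (adjusted p = 0.0125). The limma adjusted p was 0.0751 after quantile normalization, 0.055 with a pseudocount of 5, 0.0558 with no filter, 0.0538 with no trend, 0.0557 with the replicate block, 0.0802 with only the groups compared and 0.261 with the axis covariate. After quantile normalization H2AC8, H2AC17, H4C14 and H4C15 passed as higher in its place, and H2BC12 was the only member that passed as lower. Of all 10628 genes in that fit, 1785 passed as higher and 1405 as lower. In knockdown cells H1-2 had a log2 change of -0.35 (SE 0.25, limma adjusted p = 0.388), with every polysomal value below every input value, and this turned to 0.24 after size factors. H3C7 had 2.29, 1.60 and 2.27 TPM and H4C2 1.37, 1.23 and 0.73 TPM in siCtrl polysomal libraries, all under the siCtrl input values above. Their log2 changes of -1.12 (limma adjusted p = 0.0407) and -0.99 (limma adjusted p = 0.044) were near the all-gene median, at -0.15 and -0.03 relative to it, and became 0.07 and 0.11 after quantile normalization.

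A few H2A genes lay higher on polysomes without passing, although the class medians were -0.02 in knockdown and -0.36 in control cells. H2AC18, the leading H2A mRNA, had 53.3, 39.8 and 38.5 TPM in siEIF3G polysomal against 25.2, 31.2 and 17.4 TPM in siEIF3G input (log2 change 0.83, SE 0.29, limma adjusted p = 0.139). With siCtrl it had 33.7, 34.8 and 43.4 TPM in polysomal against 27.4, 30.7 and 22.5 TPM in input libraries (0.46, SE 0.29, limma adjusted p = 0.186). The fractions did not overlap with either siRNA. H2AC8 had 13.7, 7.24 and 10.1 TPM in siEIF3G polysomal against 3.27, 5.50 and 5.06 TPM in siEIF3G input (1.00, SE 0.38, limma adjusted p = 0.166). After size factors, H1-2, H2AC8, H2AC17, H2AC18, H4C14 and H4C15 passed as higher and H2BC4 as lower on control polysomes, where 43.1% of all genes passed.

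Members whose fractions did not overlap came from all 5 classes. In knockdown cells H2AC8 and H2AC18 were fully higher on polysomes (9.4% of all genes were) and 8 members fully lower (12.7% of all genes): H1-2, H2AC11, H2BC4, H2BC11, H2BC12, H2BC21, H3C10 and H3C15. In control cells H1-2 and H2AC18 were fully higher (16.9% of all genes) and 10 fully lower (28.9% of all genes), namely H1-5, H2BC4, H2BC12, H3C7, H3C8, H3C10, H4C2, H4C3, H4C9 and H4C11. H3C8, the leading H3 mRNA, had 2.77, 5.66 and 4.90 TPM in siCtrl polysomal against 16.9, 11.1 and 8.08 TPM in siCtrl input (log2 change -1.25, SE 0.47, limma adjusted p = 0.0509). All 10 tested H2B genes and all 5 tested H3 genes had a negative log2 change with either siRNA, whereas 5 of 10 H2A genes were positive in knockdown and 3 of 10 in control cells. Those signs hold for values as deposited: relative to all genes, 7 of 10 H2B and 8 of 10 H2A genes lay higher in control cells. In knockdown cells 2 of 10 H2B and 7 of 10 H2A genes lay higher relative to all genes.

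**Figure D4:**
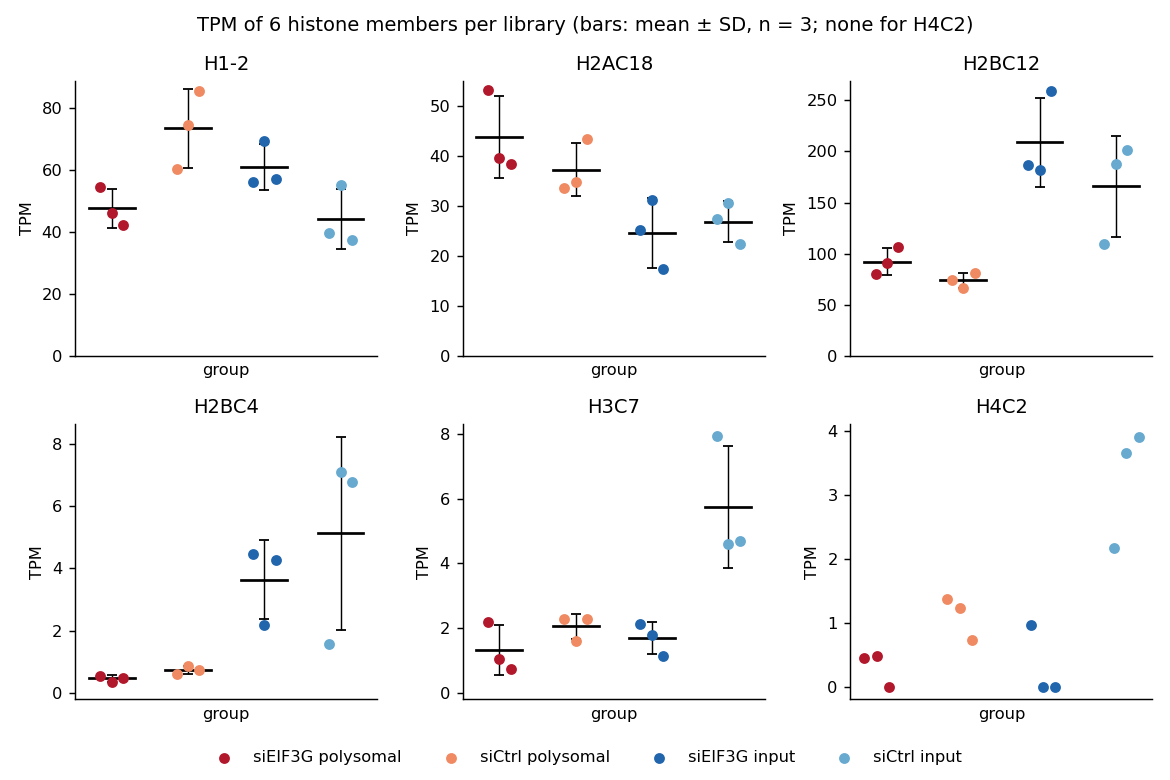
TPM of H1-2, H2AC18, H2BC12, H2BC4, H3C7 and H4C2 in each of the 12 libraries, with the mean and SD of 3 libraries per group except for H4C2, which is listed at 0 in 3 libraries. By group mean H1-2 is lowest in siCtrl input and highest in siCtrl polysomal libraries, and H2BC12 is higher in every input than in every polysomal library.

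The calls between fractions depended on single libraries. Without the 3 libraries that stood apart, 14 of 35 members passed in knockdown and 15 of 35 in control cells, where 71.3% and 75.3% of all genes passed. The 14 comprised H2AC8 and H2AC18 as higher and 12 as lower, and the 15 comprised H1-2 as higher and 14 as lower. Without siCtrl input 1 alone, 11 members passed in control cells, and 0 did when siCtrl input 2, siCtrl input 3 or any 1 siCtrl polysomal library was left out. In knockdown cells 2 passed without siEIF3G input 2 and 0 without siEIF3G input 1, siEIF3G input 3, siEIF3G polysomal 1 or siEIF3G polysomal 2. The shares of all genes passing in these fits without single libraries are not reported here.

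Some H4 values cannot be assigned to 1 gene. H4C11 and H4C12 are near copies: their 250-base promoters are identical at 98.0% of positions, where other pairs of H4 promoters reach 61.6% at most apart from H4C14 and H4C15 (100%). Reads may have been split between such genes. H4C12 was listed at 0 in siEIF3G polysomal 2, siCtrl polysomal 1 and siEIF3G input 2. Summed, the pair had 27.5, 30.3 and 26.8 TPM in siEIF3G polysomal and 34.0, 44.2 and 41.1 TPM in siCtrl polysomal libraries, which did not overlap. In input the sum was 87.5, 111 and 27.7 TPM with siEIF3G and 180, 92.0 and 67.4 TPM with siCtrl, which overlapped. The other H4 members summed to 23.1, 15.6 and 18.7 TPM in siEIF3G polysomal and 20.8, 25.8 and 21.6 TPM in siCtrl polysomal libraries, which overlapped. In values as deposited the separation of H4 on polysomes thus rests on H4C11 and H4C12. Divided by the size factors, the sums of the other members did not overlap either, being lower in every siEIF3G polysomal library. H4C14 had 78.4% to 94.7% of the TPM of H4C15 in all 12 libraries. RefSeq lists 32 of the 54 under a synonym shared with another member, among them all 10 H3 and all 11 H4 genes. Their single values may be uncertain too, but a shared synonym does not show that transcripts are alike. Transcript sequences were not compared. RSEM, the tool that the submitters' processing notes name, divides reads that match several genes among them by a statistical model; whether such reads were kept before that step was not stated.

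Without H2BC12, the H2B sum was 17.9, 26.0 and 26.8 TPM in siEIF3G polysomal and 24.9, 33.3 and 34.4 TPM in siCtrl polysomal libraries, and 50.3, 47.8 and 54.0 TPM in siEIF3G input against 34.1, 60.0 and 68.9 TPM in siCtrl input. The siRNA groups overlapped in both fractions. H2BC12 is also 1 of 7 members whose RefSeq locus is longer than 1000 bases, 6 of which were tested; most members span under 1000 bases. The longer loci had a median log2 change of -0.82 in knockdown and -0.50 in control cells between fractions, and the other 30 tested members had medians of -0.40 and -0.62. For EIF3G knockdown their medians were 0.13 against -0.19 on polysomes and 0.16 against -0.37 in input.

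Of the genes that act on these mRNAs, none of those listed passed for EIF3G knockdown in input, on polysomes or for change of loading. SLBP had 42.0, 24.7 and 87.8 TPM in siEIF3G polysomal and 31.0, 44.1 and 30.0 TPM in siCtrl polysomal libraries, and 96.5, 67.5 and 131 TPM in siEIF3G input against 43.5, 118 and 165 TPM in siCtrl input. The siRNA groups overlapped in both fractions. CTIF had 4.35, 8.98 and 3.67 TPM in siEIF3G polysomal and 8.47, 3.53 and 3.07 TPM in siCtrl polysomal, and 4.16, 4.46 and 7.27 TPM in siEIF3G input against 2.63, 5.52 and 6.05 TPM in siCtrl input. MIF4GD had 41.1, 39.0 and 30.1 TPM in siEIF3G polysomal and 47.6, 52.1 and 62.9 TPM in siCtrl polysomal libraries (log2 change -0.55, SE 0.26, limma adjusted p = 0.65). These MIF4GD groups did not overlap, and its value relative to all genes was -0.89.

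Between fractions more of the listed genes passed, mostly as lower on control polysomes, where 28.9% of all genes passed as lower and 7.98% as higher. Of the 7 genes for histone gene transcription, 2 passed as lower, the coactivator NPAT (log2 change -1.61) and CASP8AP2 (FLASH, -1.96), and none as higher; HINFP and CDK2 did not pass. Of the 11 genes for processing of the 3′ end, 5 passed as lower and none as higher, with SLBP at -1.43, the U7 snRNP protein LSM10 at -1.55, and the endonuclease subunits CPSF2 and CPSF3 and the cap-binding NCBP1 between -1.98 and -1.75. LSM10 also passed as lower in knockdown cells (-1.69, SE 0.32, limma adjusted p = 0.0145), where 1.33% of all genes passed as lower and 1.81% as higher. Of the 6 genes for SLBP-dependent translation, EIF3E (-1.83) and EIF4G1 (-1.75) passed as lower and none as higher. Of the 8 decay genes 6 passed as lower (LSM1, SMG1, TUT4, TUT7, XRN1 and DCP2) and none as higher, and the exonuclease ERI1 had -1.68 (limma adjusted p = 0.052). The medians of these 4 lists in control cells were -1.09 for transcription (0.16 after size factors, where 1 gene passed as higher and 2 as lower) and -1.43 for processing (-0.32 after size factors, 1 higher and 2 lower). They were -1.22 for translation (-0.23 after size factors, 1 higher and 0 lower) and -1.59 for decay (-0.82 after size factors, 0 higher and 4 lower), against -0.96 for all genes. After size factors, 2861 of all 10326 genes tested passed as higher on control polysomes and 1594 as lower.

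Among the 11 tested polyadenylated histone variants, H1-10 and H2AX passed as higher and H2AZ2, H3-3A and CENPA as lower on control polysomes. H1-10, another linker histone, had 363, 352 and 465 TPM in siEIF3G polysomal against 145, 209 and 235 TPM in siEIF3G input (log2 change 1.01, SE 0.23, limma adjusted p = 0.0316), and 385, 430 and 414 TPM in siCtrl polysomal against 204, 179 and 153 TPM in siCtrl input (1.20, SE 0.23, limma adjusted p = 0.0106). H2AX had 312, 287 and 185 TPM in siEIF3G polysomal and 471, 572 and 602 TPM in siCtrl polysomal libraries (log2 change -1.10, SE 0.26, limma adjusted p = 0.65), with no overlap. In input H2AX had 121, 185 and 118 TPM with siEIF3G and 229, 241 and 200 TPM with siCtrl (-0.68, SE 0.26, limma adjusted p = 1.00), again with no overlap. The most abundant variants, H2AZ1 (mean of 921 TPM) and H2AJ (796 TPM), did not pass in any comparison. The variants had a median of -0.53 on control polysomes, which turned to 0.65 after size factors. In that fit 2 variants passed as higher and 0 as lower, against 2861 and 1594 of all 10326 genes.

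Of the 10 histone chaperone genes ASF1B passed as higher (1.02) and HAT1 (-1.35) and RBBP4 (-1.61) as lower on control polysomes, with a median of -1.10 that turned to 0.02 after size factors, where ASF1B alone of these passed; RBBP7 did not pass. Of the 15 S phase genes TK1 passed as higher (1.39 in control and 1.34 in knockdown cells). PCNA, MCM3, MCM4, MCM6, RRM1, CCNA2 and POLA1 passed as lower in control cells, with log2 changes between -3.05 and -1.14. After size factors 4 of the 15 passed as higher and 4 as lower in control cells. Of all 10326 genes in that fit, 2861 passed as higher and 1594 as lower. For EIF3G knockdown on polysomes 14 of the 15 S phase genes were positive, against 14 of 36 histone members and 72.7% of all genes. Their median was 1.08, where that of all genes was 0.33, and none of the 15 passed. After size factors the S phase median was 0.57 and that of all genes -0.05. After quantile normalization these were 0.83 and 0.02. In input the S phase median was -0.10, against -0.27 for the histone members and -0.05 for all genes. The part of cell cycle in the histone values was not tested.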

How the data were processed

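RNA was sequenced from 12 libraries of H1299 cells in 4 groups of 3. The authors deposited TPM per gene and library, computed with RSEM 1.3.1 on GRCh38.p13 per the submitters' processing notes; for the aligner, annotation and strand setting the sources used here name nothing. Columns sum to 1000000 TPM within rounding, so read depth and counting error are unknown.

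From these values log2(TPM + 1) was tested with limma 3.58.1 in R 4.3.3 (mean-variance trend, 4 group means) for 10605 genes averaging 1 TPM or more; 5567 genes were set aside. Benjamini-Hochberg adjustment covered all genes of each of 5 comparisons, with a threshold of 0.05. The pseudocount understates changes of low genes. The fit was run on simulated data with independent noise of a lower spread than in these libraries. That run checks the code and does not measure power or false calls here. Class sums are summed TPM per library. Libraries sharing a replicate number did not consistently deviate together (correlations of deviations between -0.69 and 0.71, of both signs). No block was therefore used in the main fit, which treats polysomal and input libraries as independent. These correlations include the libraries that stood apart, so they cannot decide whether a shared number marks a shared lysate. Promoters are RefSeq (GRCh38.p14); all 54 members matched its gene table.

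The members, gene lists and tests were chosen with earlier results of these data known. Named genes are EIF3G, the 2 highest members per class, members past 0.05, the 3 largest changes in each knockdown comparison, the members nearest 1 TPM, SLBP, CTIF, MIF4GD, NPAT, CASP8AP2, ERI1, and from the other lists the 2 highest genes and those past 0.05. H2AC8 and the head-to-head pairs were picked out after their values were seen. Some values are not reported here.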

Additional observations from a re-analysis of the deposited data

Results flagged for a closer look

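H1-2 stood out because its libraries did not overlap between siRNAs in either fraction and the order was opposite: lower with siEIF3G on polysomes and higher with siEIF3G in input. The difference between these effects was a log2 change of -1.08 (SE 0.36), which limma tested directly with an adjusted p of 0.908, so it did not pass over all genes. Seen the other way, every polysomal value of H1-2 was under every input value in knockdown cells and above every input value in control cells, and the test of that difference is the same -1.08. The value was negative under all 26 alternatives run for it, with adjusted p-values between 0.20 and 1.00. Most of these signs were fixed in advance and are no support. With groups fully apart in both fractions, leaving out libraries could not turn the sign. The filter, trend and moderation settings left the value at -1.08.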

How the results depend on the processing

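For change of polysome loading and knockdown on polysomes 0 members passed under every alternative run, and for knockdown in input 0 passed except with the axis covariate (2). For polysomal against input in knockdown cells the count of 1 became 2 with a pseudocount of 0.1, quantile normalization or the axis covariate, 0 with no trend or with only the groups compared, and 14 without the 3 libraries that stood apart; leaving out single libraries or replicate numbers gave 0 to 2. In control cells the count of 5 became 2 with no filter, a filter of 5 TPM or the axis covariate, 0 with only the groups compared, and 15 without the 3 libraries; with quantile normalization it stayed at 5, but with 4 higher and 1 lower in place of 1 higher and 4 lower, and only H2BC12 in common; leaving out libraries or replicate numbers gave 0 to 11. Fits without some libraries had fewer values per group, but counts did not only fall: without the 3 libraries they rose. Between fractions, 3.14% of all genes passed in knockdown and 36.9% in control cells in the main fit. Without the 3 libraries these shares were 71.3% and 75.3%. For knockdown in input with the axis covariate 0.226% of all genes passed. Shares under the remaining alternatives are only partly reported here, so these counts do not describe the histone members alone. The cause of the changed counts was not tested.

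The members' median log2 change was -0.56 with size factors and -0.60 with quantile normalization for knockdown on polysomes, and -0.34 and -0.29 for change of loading, which as deposited was positive. For polysomal against input it was 0.017 (size factors), 0.068 (quantile) and -0.14 (no filter) in knockdown cells, and 0.26 (size factors), 0.40 (quantile) and -0.22 (axis covariate) in control cells. For knockdown in input it was -0.68 to -0.005 when libraries or replicate numbers were left out. Size factors turned H1-2 in knockdown cells to 0.24 and H2BC12 in control cells to 0.059 between fractions, and quantile normalization turned H3C7 to 0.073 and H4C2 to 0.106 in control cells. H4C12 rested on siEIF3G input 2: without the 3 libraries its values were -0.92 for loading and 0.07 for knockdown in input, and with single libraries or numbers left out they were -0.073 to 2.895 and -2.654 to 0.213.

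A fit with the replicate number as a block left 3 members called in control cells in place of 5. It changed no other count of called members. The labels do not say whether a shared number marks polysomal and input RNA of the same lysate, and pairing by lysate was not tested. The change of loading needs all 4 groups, so a fit to the compared groups alone was not run for it. Detection limits the low members: 30 of the 54 were above 0 in all 12 libraries.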
